A study of Mus musculus with 10 samples.

Results

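The unirradiated state of mouse inguinal fat was described from the 3 sham libraries among the 10 libraries of the study, chosen by their titles, which place them at day 70 without irradiation. They came from wild-type C57BL/6J mice, and the fat was the subcutaneous white depot of the left hindlimb. The other libraries came from mice of the same strain and genotype whose left hindlimb had received 33.3 Gy of electrons from an ElectronFlash linear accelerator. The dose was given in FLASH mode in 4 libraries and in conventional mode, CONV, in 3, and all samples carry the batch number 1. Total RNA from small pieces of frozen fat was depleted of ribosomal RNA and sequenced with a stranded kit. The labels do not say whether each library was a separate animal, so p-values measure only the spread between these samples, which may be technical.

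White adipocytes store triglyceride in a single large droplet and release fatty acids when catecholamines activate lipases. They build fat from fatty acids taken up from lipoproteins and from fatty acids made from glucose, and they secrete adiponectin, leptin and adipsin. A piece of inguinal fat also holds progenitors, vessels, macrophages, nerve and, in the intact depot, a lymph node, and it lies against hindlimb muscle.

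Counts given to genes were 34.9, 31.3 and 28.9 M (M, 1e6) in sham replicates 1 to 3, and 17569, 17561 and 17391 of 24421 gene symbols had a count. Levels are given on 2 scales. CPM is counts scaled to 1e6 per library with TMM factors, which compares libraries. The length-scaled level divides counts by gene length before scaling to 1e6, and it is used wherever genes are compared with each other. A count of 3 equalled 0.0897, 0.0961 and 0.0992 CPM, the floor for a gene not seen, which covers counting error only. Entries for reads given to no gene held 53.7%, 56.9% and 62.0% of all entries in replicates 1 to 3. No 2 sham libraries were the same within sampling noise: the mean chi-square per gene between pairs was 54.9 to 132, where sampling noise alone gives about 1. The median per gene was 4.49 to 9.36, so the means were raised by the genes that differed most.

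The defining markers of the white adipocyte were among the most abundant transcripts in every sham library. Scd1, the enzyme that puts the first double bond into saturated fatty acids, led both scales. Its CPM was 78548, 54329 and 41022 in replicates 1 to 3, and its length-scaled level was 39282 ± 10530 (SD, n = 3). Adipoq, which encodes adiponectin, stood at 2069, 1691 and 1538 CPM. Plin1, the coat protein of the lipid droplet, stood at 1689, 1693 and 1804 CPM. The fatty acid carrier Fabp4 stood at 2492, 1660 and 2135 CPM. Plin1 was nearly level between libraries with TMM factors, at a log2 range of 0.09, but ranged over 0.22 with total counts as scaling. Scd1 differed 1.91-fold from lowest to highest. In GRCm38, the build also called mm10, the annotation places Scd1 at chr19:44394455-44407879, Adipoq at chr16:23146536-23158028, Plin1 at chr7:79720218-79732903 and Fabp4 at chr3:10204088-10208576. All 25 genes of the white adipocyte list had a mean of at least 1 CPM.

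Per length, the protein-coding transcripts after Scd1 were Car3 (28057 ± 1506), a carbonic anhydrase abundant in fat and muscle, and Cfd (15926 ± 3529), which encodes the secreted protease adipsin. They were followed, among protein-coding genes, by Lpl (8889 ± 1536), the lipase that frees fatty acids from lipoproteins, Fabp4 (7723 ± 1309) and the actin-severing protein Gsn (7465 ± 794). Next came B2m (6663 ± 711), the light chain of MHC class I, Adipoq (4506 ± 423) and the matrix protein Sparc (4367 ± 1191). All of these values are length-scaled levels with their SD over 3 libraries. Of the 25 leading genes on this scale 10 were on the white adipocyte list, and 18 were among the leading 25 of every library. Nnat, which encodes a small membrane protein of the endoplasmic reticulum, reached 3327 ± 1250 and Sncg, which encodes gamma-synuclein, 3315 ± 912. Both were lower in replicate 1 than in replicates 2 and 3. Only 14 genes were shared between the leading 25 per length and the leading 25 by CPM, where long transcripts such as Ahnak (8853 ± 1513 CPM) rank higher.

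**Figure D1:**
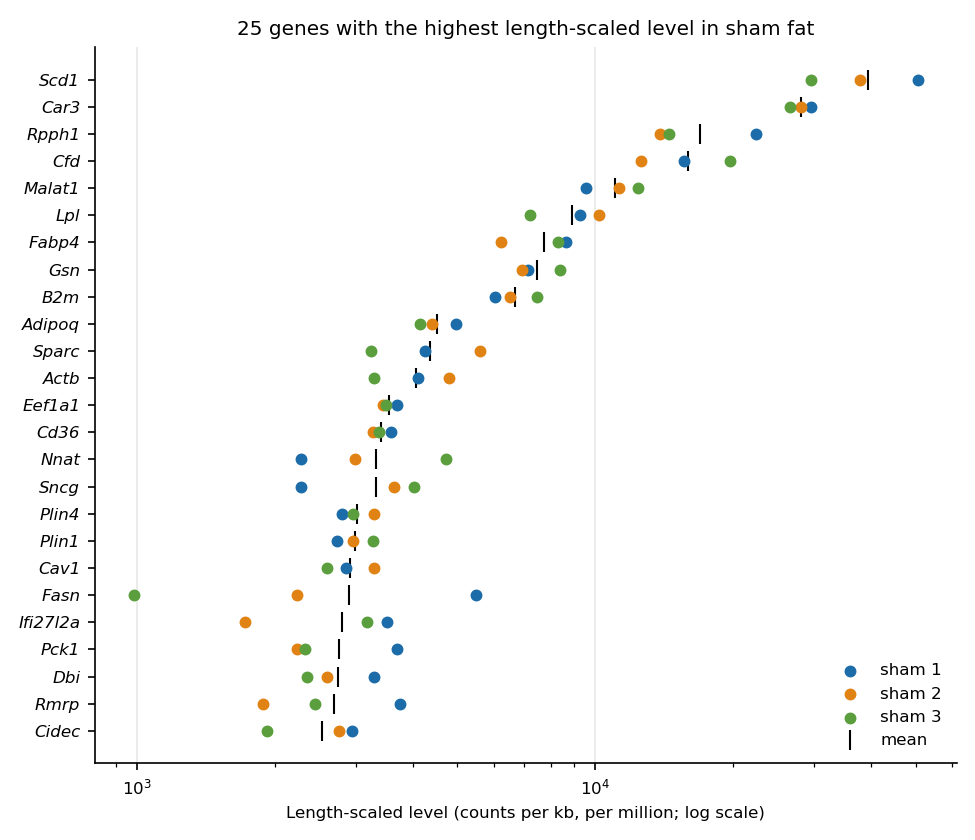
Length-scaled level (log axis) of the 25 genes with the highest mean in the 3 sham libraries, with a point for each library and a tick for the mean. Scd1 at 39282 and Car3 at 28057 stand above the rest, and Fasn has the widest spread of the genes drawn.

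Noncoding RNA made up a visible share. Malat1, a nuclear RNA, stood at 21410, 23409 and 24853 CPM, second only to Scd1 by mean. The 45S ribosomal precursor Rn45s held 2.92%, 1.79% and 1.95% of gene counts. Rpph1, the RNA of RNase P, had a length-scaled level of 16914 ± 4751 and Rmrp, the RNA of RNase MRP, of 2691 ± 954. These RNAs are very short, so their per-length levels rest on few bases. The 10 leading genes together held 19.2%, 15.4% and 14.2% of gene counts, and 516, 608 and 698 genes, taken from the highest down, made up 50% of the counts in replicates 1, 2 and 3.

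Most families of lipid storage genes had 1 leading member, while the perilipins had 2. Plin1 and Plin4 carried 46.3% ± 2.97 and 46.7% ± 2.32 of the summed length-scaled level of the perilipins, and Plin2, the perilipin of small droplets, carried 6.21% ± 2.01. Cidec, which drives droplet fusion, carried 97.8% ± 1.42 of the CIDE family. Dgat2, which adds the last fatty acid to triglyceride, carried 90.9% ± 2.63 of the DGAT pair. Among acyl-CoA synthetases Acsl1 carried 93.9% ± 0.976, and Fabp4 carried 95.9% ± 1.23 of the fatty acid binding proteins listed. Each of these shares is a mean with its SD over the 3 libraries. The same held at the membrane: Adrb3, the beta-adrenergic receptor of rodent adipocytes, carried 88.9% ± 4.48 of the beta-receptor level, and the insulin-regulated transporter Slc2a4 (GLUT4) 91.1% ± 1.102 of the glucose transporters listed. In insulin signalling the leading forms were Irs1 with 73.9% ± 5.17, Akt2 with 69.5% ± 3.03 and Hk2 with 71.0% ± 3.85 of their families. Pparg, the nuclear receptor that maintains adipocyte identity, carried 83.6% ± 3.81 of the PPAR family.

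Enzymes that break down triglyceride were abundant as well. Pnpla2 (ATGL), the first lipase, had a length-scaled level of 1459 ± 328, Lipe (hormone-sensitive lipase) of 1131 ± 263 and Mgll, the last lipase, of 736 ± 85.5. Among the regulators, Cebpa (759 ± 295) stood above Pparg (329 ± 41.6) and Ebf1 (264 ± 96.2). Cebpa was 928, 485 and 420 CPM in replicates 1 to 3, while Pparg was 225, 226 and 256 CPM. The libraries thus differed more for Cebpa, whose highest value was in replicate 1, than for Pparg.

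Among the 17 genes of the secreted factor list, Cfd and Adipoq led per length. They were followed by Apoe (2478 ± 305), the acute-phase protein Hp (1988 ± 605), Lep (1496 ± 492) and Retn (1259 ± 168). Secreted proteins outside this list, such as Lpl and Sparc, are not ranked here. Leptin RNA was 1283, 2002 and 1123 CPM, highest in replicate 2. The 17 genes of the secreted factor list held 1.15%, 1.13% and 1.23% of gene counts, a nearly constant share.

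Thermogenic genes were low. Ucp1, the uncoupling protein of brown and beige adipocytes, had 130, 2 and 1 counts in replicates 1 to 3, or 3.89, 0.0640 and 0.0331 CPM, so that it passed the floor in replicate 1 alone. Cidea was 40.1, 7.94 and 11.8 CPM and Cox8b, a cytochrome oxidase subunit of brown fat and muscle, 29.9, 6.12 and 7.41 CPM, both highest in replicate 1. Elovl3 had 0, 1 and 0 counts. Prdm16 (50.9, 53.3 and 47.8 CPM) and Ebf2 (100.6, 87.5 and 92.7 CPM), regulators of the brown and beige programme, were nearly level between the libraries.

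The make-up of the tissue was read from marker lists, each given as its share of gene counts. In bulk RNA, fewer cells of a type and less RNA per cell cannot be told apart, and the shares are not shares of cells. The white adipocyte list held 13.5%, 11.01% and 9.40% in replicates 1, 2 and 3. Scd1 made up 55.9%, 49.2% and 45.6% of that, and without Scd1 the list held 5.94%, 5.59% and 5.11%. Progenitor and fibroblast genes held 0.902%, 0.987% and 1.03%, mostly Gsn, which other cells also express, and Dcn. Blood endothelial genes held 0.148%, 0.164% and 0.203%, and macrophage genes 0.105%, 0.129% and 0.109%. At this depth the 95% Wilson intervals of list shares above 0.1% were within 1.11% of the share itself, counting error only, so the differences between libraries exceed counting error in most of these lists. Leading markers were Rgcc (565 ± 13.5), Aqp1 (286 ± 52.6) and Cdh5 (225 ± 42.0) for endothelium, and Lyz2 (593 ± 64.4), C1qa (244 ± 31.8) and C1qb (237 ± 36.1) for macrophages, as length-scaled levels.

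**Figure D2:**
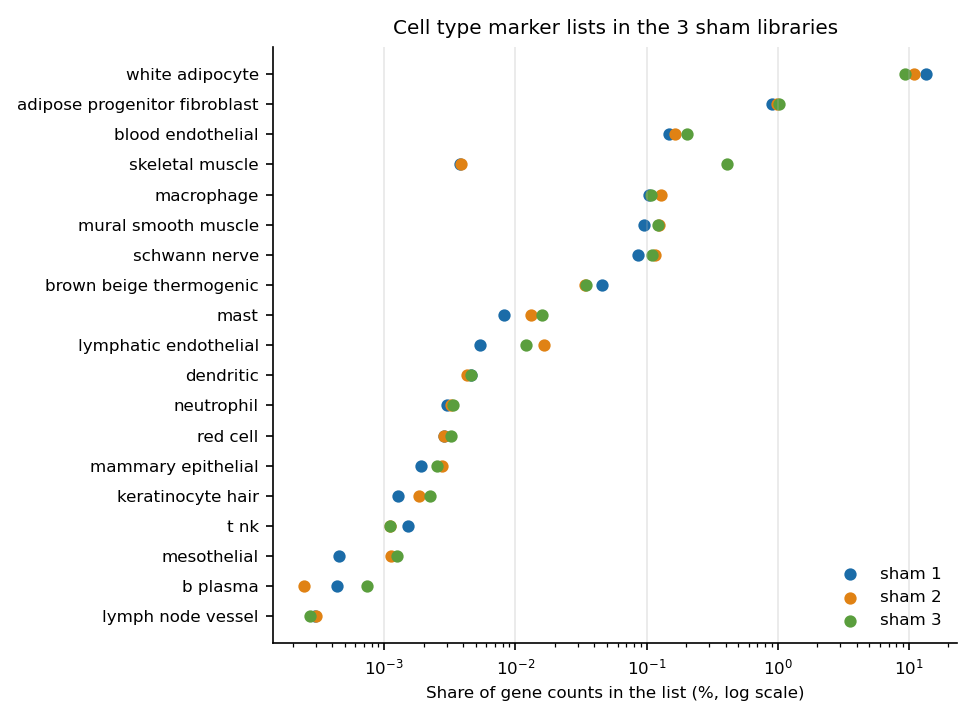
Share of gene counts (percent, log axis) held by each of 19 cell type marker lists in the 3 sham libraries. White adipocyte genes lead in all 3, and the skeletal muscle list is at 0.408% in replicate 3 against 0.00375% and 0.00386% in the others.

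Lymphocyte transcripts were low, with 7 of 12 T and NK cell genes and 1 of 9 B and plasma cell genes at a mean of at least 1 CPM. T and NK cell genes held 0.00153%, 0.00110% and 0.00111% of counts and B and plasma cell genes 0.000433%, 0.000246% and 0.000733%. Cd3e of the T cell receptor complex was 2.48, 1.41 and 0.695 CPM. Glycam1, Ccl19 and Chst4, made by vessels and stroma of lymph nodes, and the lymphatic chemokine Ccl21a had 0 counts in all 3 libraries. Madcam1 and Cxcl13, the other 2 genes of the lymph node vessel list, together had 103, 94 and 78 counts in replicates 1 to 3. Of these 2 genes, 1 had a mean of at least 1 CPM. The list of 5 genes held 0.000295%, 0.000300% and 0.000270% of gene counts. Reads aligned to more than 1 place were given to no gene and held 5.22%, 4.17% and 4.73% of all entries in replicates 1 to 3. A count of 0 is therefore uncertain for genes with close paralogs. By the lymphocyte lists and the lymph node vessel list, the sham libraries carried little RNA of lymph node type. Mammary milk genes (Csn2, Csn3, Wap) and Elf5, the mesothelial genes Upk3b, Wt1 and Bnc1, and the hair keratin Krt27 were also at 0 counts in all 3 libraries. The Y-linked genes Ddx3y (144, 149 and 138 CPM) and Eif2s3y (79.3, 83.5 and 87.8 CPM) were present in every library and Xist was at most 0.576 CPM.

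The proportions among collagens and the levels of positional genes were similar in the 3 libraries. Col3a1, a fibrillar collagen, led the 20 collagens listed with 26.7% ± 0.937 of their summed length-scaled level, followed by the basement membrane collagen Col4a1 with 13.8% ± 1.14. Hox genes mark the place of a tissue along the body axis. Hoxc8 (286 ± 15.1) carried 50.9% ± 1.43 of the Hoxc level per length, Hoxc6 21.3% ± 1.04 and Hoxc10 9.95% ± 0.977. Hoxc12 was at 0 counts. Hoxc8 hardly varied, at 164, 157 and 162 CPM, and no gene of the positional list with a mean of at least 1 CPM ranged over more than 2-fold.

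The libraries resembled each other for most genes. Among 10942 genes with a mean of at least 5 CPM, the median range from lowest to highest library was 1.24-fold, 1605 genes stayed within 1.1-fold, 423 (3.87%) exceeded 2-fold and 65 (0.594%) exceeded 4-fold. Ranges are log2 differences of CPM with a prior count of 2, and no test was made, since a single library has no replicate. The common biological coefficient of variation in edgeR was 0.192 over 14032 genes. Levels varied least between 10 and 1000 CPM, with a median coefficient of variation of 10.9% from 10 to 100 CPM and 10.5% from 100 to 1000 CPM. It was 17.1% in the 79 genes of 1000 CPM or more, where counting error alone gives 0.439%.

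The steadiest genes with a mean of at least 50 CPM were Vps41, Vps35, Clic4, Mbtps1 and Kpna1. Vps41 and Vps35 act in sorting proteins between endosomes, lysosomes and the Golgi. Vps41 was 98.6 ± 0.130 CPM and Vps35 201 ± 0.354 CPM (SD, n = 3), with ranges of 1.0026-fold and 1.0032-fold. Counting error alone gives a median coefficient of variation of 3.23% from 10 to 100 CPM and 1.38% from 100 to 1000 CPM. Spreads below counting error, picked as the smallest of 3945 genes over 3 libraries, do not show that these genes are steadier than others. Among genes often used as references, Tfrc (log2 range 0.13), B2m (0.14) and Tbp (0.26) were steady. Gapdh was 642, 381 and 260 CPM in replicates 1 to 3, a log2 range of 1.30. Gapdh shared the order of the libraries that fatty acid synthesis genes showed.

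Fatty acid synthesis differed most among the metabolic groups, and all 16 of its listed genes were highest in replicate 1. Over 13334 genes with a mean of at least 1 CPM, 38.9% were highest in replicate 1, 25.6% in replicate 2 and 35.5% in replicate 3. With total counts as scaling these shares were 28.6%, 23.5% and 47.9%, and the count stayed at 16 of 16. Fasn, the synthase that builds palmitate, was 17754, 6684 and 2843 CPM, a 6.25-fold range. Acly, which makes cytosolic acetyl-CoA from citrate, was 1864, 662 and 282 CPM. Acaca, which makes malonyl-CoA, was 2994, 1134 and 744 CPM. All 3 enzymes were highest in replicate 1 and lowest in replicate 3.

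Elovl6, which lengthens palmitate, had the widest range of the group, 8.27-fold, at 463, 118 and 56.0 CPM. Acss2, which makes acetyl-CoA from acetate, was 433, 156 and 74.8 CPM, and Slc25a1, the mitochondrial citrate exporter, was 489, 200 and 127 CPM. The transcription factors moved less: Srebf1 was 328, 227 and 205 CPM and Mlxipl (ChREBP) 182, 139 and 164 CPM. The list mean ranged over 1.63 log2 units and over 0.57 without replicate 1. The list held 10.4%, 6.67% and 4.97% of gene counts, mostly Scd1, and 2.91%, 1.25% and 0.681% without Scd1. The fructose transporter gene Slc2a5 was 15.4, 1.31 and 0.265 CPM, in the same order.

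**Figure D3:**
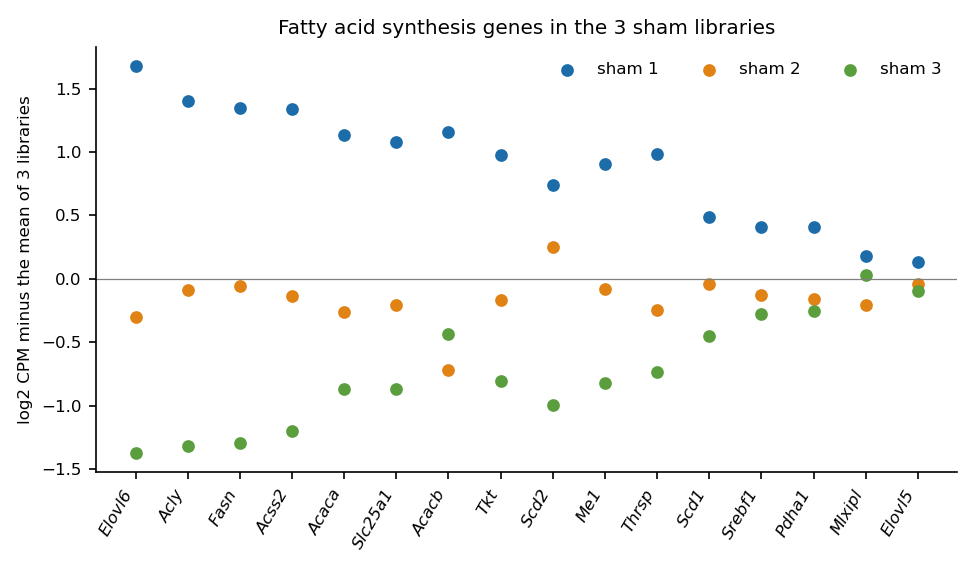
Log2 CPM of the 16 fatty acid synthesis genes in each sham library, minus the mean of the 3, ordered by range. Replicate 1 is the highest point for every gene, from Elovl6, with 463 against 118 and 56.0 CPM, to Elovl5.

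Neighbouring pathways leaned the same way. All 12 triglyceride synthesis genes were highest in replicate 1, or 11 of 12 with total counts as scaling, with Dgat2 at 1633, 1342 and 652 CPM. Of 17 oxidation and citrate cycle genes, 16 were highest in replicate 1 (15 with total counts). Pcx, which makes oxaloacetate from pyruvate, was 1521, 752 and 440 CPM. Subunits of oxidative phosphorylation, listed by symbol after the data were seen, were highest in replicate 1 in 76 of 83 cases (69 with total counts). Interferon-stimulated genes were highest there in 14 of 16 cases under both scalings, with Mx1 at 9.15, 3.20 and 2.15 CPM. The insulin signalling list did not follow, with a range of its mean of 0.06 log2 units, or 0.18 with total counts, and 4 of 16 genes highest in replicate 1 (3 with total counts). Insr was 411, 370 and 431 CPM and Slc2a4 250, 162 and 179 CPM.

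Skeletal muscle genes gave the widest ranges of all, and they were high in replicate 3 alone. Of the 22 muscle list genes, 21 had a count in sham, and all 21 were highest in replicate 3 with TMM factors and with total counts, while Myh7 had none. The list held 0.408% of gene counts there (95% Wilson interval 0.406% to 0.410%) against 0.00375% (0.00355% to 0.00396%) in replicate 1 and 0.00386% (0.00365% to 0.00409%) in replicate 2. Ttn, the giant elastic protein of the sarcomere, had 50, 54 and 81234 counts, or 1.49, 1.73 and 2687 CPM. Myh4, the myosin heavy chain of fast IIB fibres, had 0, 2 and 9309 counts, at least 3433-fold higher in replicate 3 than the floor of replicate 1. Atp2a1, the fast muscle calcium pump, was 0.120, 0.448 and 160 CPM.

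In replicate 3, Myh4 carried 87.3% and Myh1, of fast IIX fibres, 12.1% of the summed length-scaled level of the 4 myosin heavy chains of muscle fibres listed, while Myh7 of slow fibres had 0 counts in all 3 libraries. Among irradiated libraries with muscle RNA the mixture varied. Myh1 carried 98.8% in FLASH replicate 2, and Myh1 and Myh2 carried 60.3% and 39.7% in FLASH replicate 4. In CONV replicate 1, Myh4 carried 74.6% and Myh1 17.9%, in the same order as in sham replicate 3. Of the 30 genes with the widest range, 23 were highest in replicate 3 and 14 were on the muscle list. Others among them with known muscle roles were Xirp2, Mybpc1, Mybpc2, Nrap, Klhl31 and Tpm2. Without replicate 3 the range of the list mean fell from 5.87 to 0.20 log2 units and the genes over 4-fold from 65 to 12. The 30 and the 65 genes were taken from those with a mean of at least 5 CPM over all 3 libraries. Genes such as Myh4 and Atp2a1 passed that filter only through replicate 3, so the filter itself favours such genes in these tallies. The part of muscle RNA in other differences of replicate 3 was not tested.

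**Figure D4:**
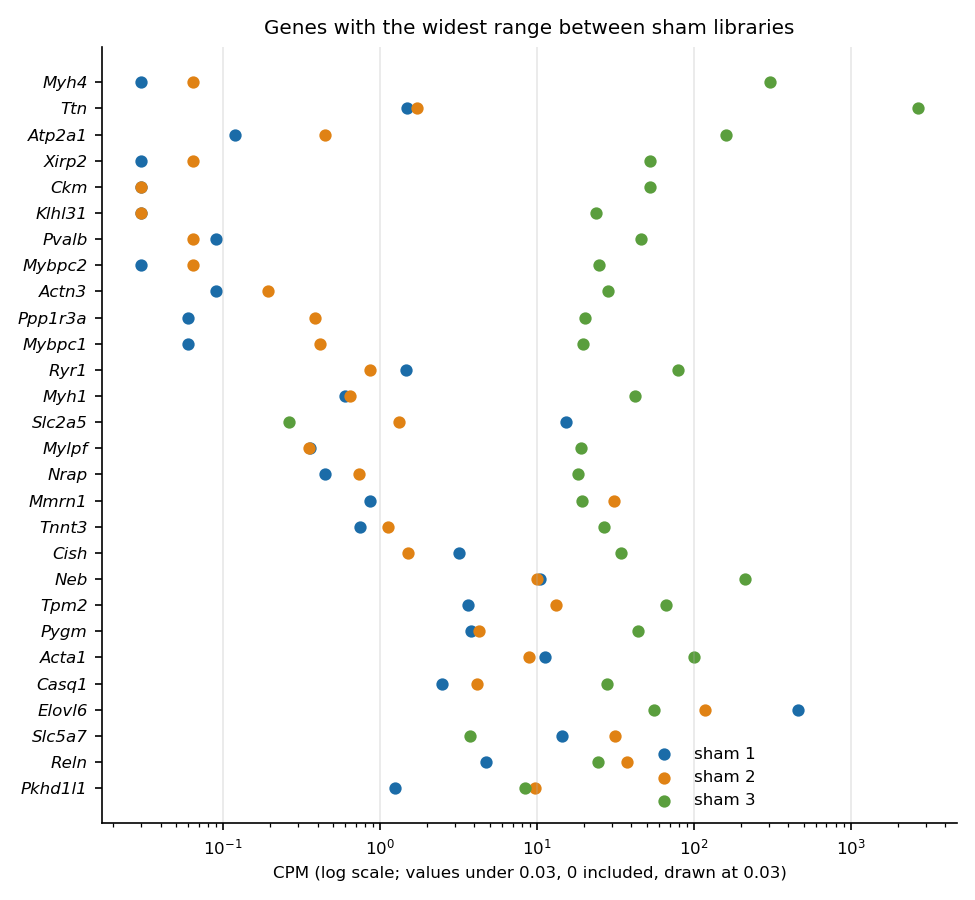
CPM (log axis) in each sham library of 28 of the 30 genes with the widest range among genes with a mean of at least 5 CPM, with values at or near 0 drawn at the left edge. Replicate 3 is the highest point in 22 of them, and Slc2a5, Mmrn1, Elovl6, Slc5a7, Reln and Pkhd1l1 are highest in other libraries.

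Nerve and lymphatic genes set the libraries apart in other ways. Of 12 Schwann cell and nerve genes, 10 were highest in replicate 2 under each scaling. Prx, a protein of the myelin sheath of peripheral nerve, was 4.42, 18.3 and 6.71 CPM. The list mean ranged over 1.36 log2 units and over 0.51 without replicate 2. Slc5a7, the choline transporter of cholinergic neurons, was 14.5, 31.3 and 3.74 CPM, highest in the same library. Its order of the other libraries differed from that of Prx.

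Lymphatic endothelial genes were low in replicate 1. Mmrn1 was 0.867, 31.1 and 19.4 CPM, Reln 4.72, 37.4 and 24.7 CPM and Prox1, the transcription factor that sets lymphatic identity, 0.418, 2.43 and 2.71 CPM. The general lymphatic marker Lyve1 varied less, at 21.9, 47.6 and 27.8 CPM. The list mean ranged over 1.86 log2 units and over 0.35 without replicate 1. Of 12 mural and smooth muscle genes of vessels, 9 were lowest in replicate 1 (10 with total counts), against 36.9% of all genes with a mean of at least 1 CPM, with Myh11 at 32.7, 104 and 83.5 CPM, whereas the pericyte gene Rgs5 was 195, 183 and 217 CPM.

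Collagens were highest in replicate 2 in 19 of 20 cases (18 with total counts). Col1a1 was 744, 1098 and 516 CPM and Col3a1 2910, 3821 and 2279 CPM. Macrophage genes followed in 13 of 15 cases (14 with total counts), with C1qb at 71.6, 89.3 and 71.8 CPM. Blood endothelial genes were highest in replicate 3 in 13 of 16 cases under each scaling, with Pecam1 at 164, 191 and 239 CPM. The collagen list mean ranged over 0.85 log2 units, and over 0.37 without replicate 2, and 6 of the 20 collagens ranged over more than 2-fold. The macrophage and endothelial list means ranged over 0.42 and 0.37 log2 units, or 0.13 without replicate 2 and 0.11 without replicate 3. Of 44 lists, 39 ranged over less than 1 log2 unit.

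Genes that respond to handling, time of day or stress were compared by list mean, in which members that differ in opposite directions cancel. The immediate early list ranged over 0.30 log2 units, the circadian list over 0.13, the heat shock list over 0.17 and the glucocorticoid list over 0.35. Zfp36 was 47.1, 46.9 and 46.7 CPM, while Nr4a1 was 12.2, 36.3 and 20.5 CPM. Nr1d1, a repressor of the clock, was 350, 290 and 295 CPM, and Arntl, an activator of the clock, was 15.5, 19.4 and 30.8 CPM. Targets of p53 ranged over 0.30, with Mdm2 at 45.3, 44.9 and 42.6 CPM.

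Promoter sequence is shown for genes of the groups that moved together, beside the adipocyte marker Adipoq, with a log2 range of 0.43. Sequences are the 250 bases before the RefSeq start, from RefSeq on GRCm38.p6, 5′ to 3′ on the strand of the gene. The windows are chr16:23146286-23146535 on the plus strand for Adipoq, chr11:120824548-120824797 on the minus strand for Fasn, chr16:17928220-17928469 on the minus strand for Slc25a1, chr11:67237562-67237811 on the plus strand for Myh4 and chr7:127211358-127211607 on the plus strand for Mylpf, which encodes the regulatory light chain of fast myosin. Capitals mark the CCAAT box in the first 3, and the E-box CAGCTG, the kind that myogenic factors bind, in the last 2, on either strand. The Adipoq window also holds CAGCTG, which is left in lower case.
Adipoq: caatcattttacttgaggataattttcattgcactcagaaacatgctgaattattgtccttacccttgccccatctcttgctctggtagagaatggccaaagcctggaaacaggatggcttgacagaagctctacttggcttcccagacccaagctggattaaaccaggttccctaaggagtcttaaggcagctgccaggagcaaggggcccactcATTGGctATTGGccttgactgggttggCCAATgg
Fasn: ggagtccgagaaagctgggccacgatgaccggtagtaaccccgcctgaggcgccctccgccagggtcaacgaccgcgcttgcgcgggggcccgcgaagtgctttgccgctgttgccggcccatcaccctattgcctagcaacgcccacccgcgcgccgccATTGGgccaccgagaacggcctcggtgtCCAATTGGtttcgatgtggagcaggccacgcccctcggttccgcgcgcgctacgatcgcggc
Slc25a1: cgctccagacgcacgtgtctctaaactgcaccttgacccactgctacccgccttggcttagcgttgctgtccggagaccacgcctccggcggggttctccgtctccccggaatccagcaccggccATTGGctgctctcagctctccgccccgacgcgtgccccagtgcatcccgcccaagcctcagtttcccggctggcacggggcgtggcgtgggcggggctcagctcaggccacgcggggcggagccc
Myh4: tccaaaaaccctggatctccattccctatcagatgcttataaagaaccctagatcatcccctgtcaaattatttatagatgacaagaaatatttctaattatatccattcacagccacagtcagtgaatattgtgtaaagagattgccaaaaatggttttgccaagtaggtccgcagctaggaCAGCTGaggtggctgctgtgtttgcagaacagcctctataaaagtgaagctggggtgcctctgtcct
Mylpf: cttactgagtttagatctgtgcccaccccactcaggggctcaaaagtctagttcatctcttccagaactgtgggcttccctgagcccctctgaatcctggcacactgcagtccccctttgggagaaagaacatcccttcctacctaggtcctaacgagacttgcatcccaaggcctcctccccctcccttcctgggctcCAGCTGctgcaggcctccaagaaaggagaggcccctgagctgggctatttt
The Adipoq window held 3 CCAAT matches, that of Fasn 3, of which 2 overlap on opposite strands, and that of Slc25a1 held 1.

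Across the 27025 symbols with a promoter in the table, taking the first start listed for each, CCAAT occurred on either strand in 34.5% of windows. It occurred in 7 of 14 fatty acid synthesis genes with a window, in 8 of 16 muscle genes and in 3 of 17 white adipocyte genes. CAGCTG, a palindrome, occurred in 12.8% of all windows, in 7 of 16 muscle genes (Acta1, Atp2a1, Casq1, Ckm, Myh4, Mylpf and Pygm), in 1 of 14 fatty acid synthesis genes and in 4 of 17 white adipocyte genes. The other motifs searched were CACGTG (6.05% of windows), the sterol element TCACNCCAC (1.04%), a MEF2-type motif (3.23%) and TATAAA (13.0%), which occurred in 2, 1, 0 and 1 of the fatty acid synthesis windows and in 0, 0, 1 and 3 of the muscle windows. TCACNCCAC occurred in Mlxipl. These matches describe letters in the windows and are no evidence of binding.

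Set against the irradiated groups, no gene of 15266 passed edgeR's quasi-likelihood test at an adjusted p under 0.05. The percentage called was 0% for FLASH and 0% for CONV, with 99 and 889 genes at an unadjusted p under 0.05. DESeq2 called 0 and 66 genes, and limma voom called 0 and 0. Both comparisons share the sham libraries. FLASH replicate 3 and CONV replicate 2 stand apart by lymphocyte RNA, with B cell list means 8.90 and 9.67 log2 units above the sham mean. The common biological coefficient of variation was 0.497 among FLASH libraries and 0.189 without replicate 3, and 0.595 among CONV libraries and 0.364 without replicate 2, against 0.192 in sham.

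Without these 2 libraries edgeR called 0 of 15252 genes in FLASH, or 0%, with 385 at an unadjusted p under 0.05, and 6 in CONV, which is 0.0393%. DESeq2 then called 4 and 661 genes, and limma voom 0 and 4. Of the 6 genes in CONV, 5 rose, namely Card14, Socs3, Il4ra, Prg4 and Vmp1, and 1 fell. Socs3, a feedback inhibitor of cytokine signalling, was 7.17 to 7.76 CPM in sham, with factors set over all 10 libraries, and 38.5 and 50.4 CPM in CONV replicates 1 and 3 (log2 fold change 2.56 ± 0.20 SE, adjusted p 0.0100). Il4ra, a receptor chain for interleukin 4, was 38.9 to 42.7 CPM in sham and 104 and 152 CPM in CONV (log2 fold change 1.64 ± 0.15 SE, adjusted p 0.0228). The 5 genes that rose had ranges of at most 0.42 log2 units in sham, where the median over all genes tested was 0.38. The test uses the spread among these sham libraries, so genes with a small range there pass more easily. None of the 6 was a member of any list, and none of the 667 list members tested was called. With 1 sham library left out as well, CONV called 0 genes in each of the 3 cases.

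The spread within sham was as large as many differences between groups. In 68.3% of genes the fold change of FLASH against sham was smaller than the log2 range of the gene among the 3 sham libraries, and in 50.9% for CONV, or in 86.3% and 68.0% without the 2 lymphocyte-rich libraries. The median sham range was 0.38 log2 units. For list means, the difference from sham was below the width of the sham range in 28 of 44 lists for FLASH and 18 for CONV, or in 37 and 36 without those 2 libraries. A range over 3 libraries is wider than their standard error, so this is a description and no test.

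Fatty acid synthesis and muscle genes varied within irradiated groups as well. Relative to the sham mean, the fatty acid synthesis list stood at 0.90, -0.16 and -0.74 log2 units in sham replicates 1 to 3. It stood at -0.32, -0.01, -1.80 and -0.42 in FLASH replicates 1 to 4, and at -0.52, -1.72 and 1.86 in CONV replicates 1 to 3. CONV replicate 3 lay above every sham library, the lymphocyte-rich pair lay below them, and the rest lay inside the sham range. In that pair the white adipocyte list stood lower still, at -2.26 in FLASH replicate 3 and -2.84 in CONV replicate 2, against -0.16 to 0.23 in sham, and its part in the lower fatty acid synthesis values was not tested. Fasn did not pass the test in FLASH (log2 fold change -0.59 ± 1.09 SE, adjusted p 0.998 by edgeR) or in CONV (0.71 ± 1.18 SE, adjusted p 0.789).

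The muscle list stood at -2.02, -1.82 and 3.84 in sham, at -2.19, 2.73, -1.70 and 0.35 in FLASH and at 6.09, -1.05 and -2.55 in CONV. High and low libraries thus occurred in every group. The Schwann cell list stood at -0.62, 0.74 and -0.11 in sham, at -1.18, -0.37, -1.42 and -0.53 in FLASH and at -0.45, -1.32 and -0.55 in CONV. Replicate 2 of sham was the highest library of the study for this list. The thermogenic list stood at 0.56, -0.28 and -0.28 in sham, at -0.69, -0.59, -1.45 and -0.34 in FLASH and at -0.23, -1.29 and 1.82 in CONV. All 4 FLASH libraries and CONV replicate 2 lay below the sham range, and CONV replicate 3, where Ucp1 was 20.6 CPM, lay above it. The insulin signalling list stood between -0.03 and 0.03 in sham, between -0.55 and 0.08 in FLASH and between -0.71 and 0.25 in CONV.

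**Figure D5:**
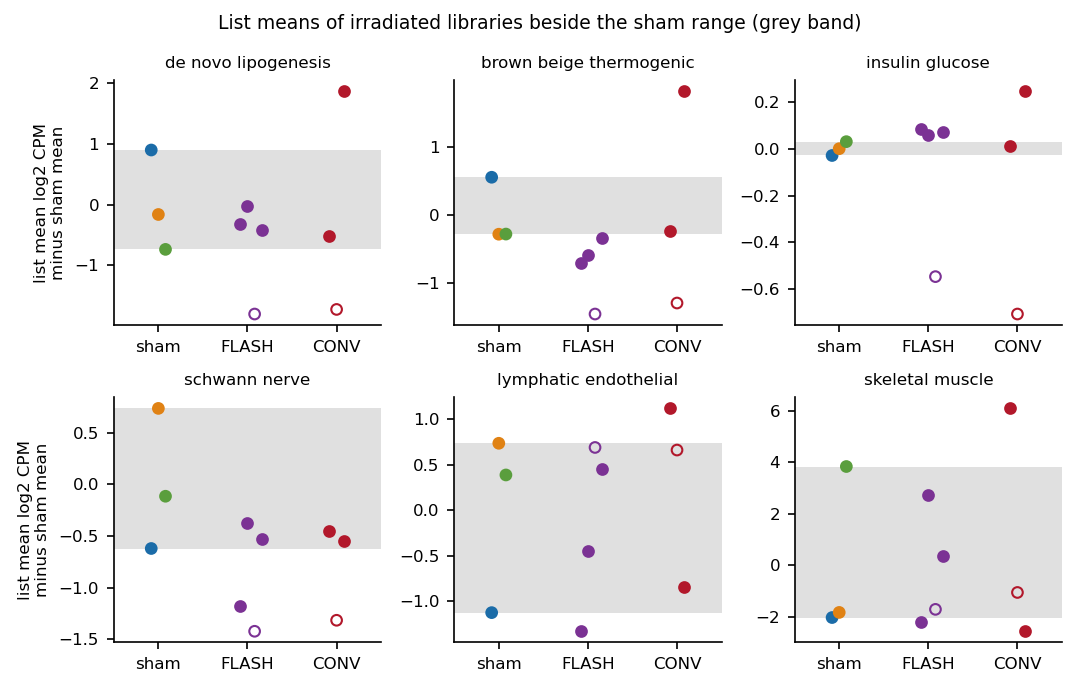
Mean log2 CPM of 6 gene lists in each of the 10 libraries, minus the sham mean. Sham points keep their replicate colours, the grey band is the sham range, and open circles are FLASH replicate 3 and CONV replicate 2. For fatty acid synthesis only CONV replicate 3, at 1.86, lies above the band.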

How the data were processed

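Total RNA was sequenced in 10 libraries, 3 of them sham. Whole-number read counts for each gene symbol were deposited, with no scaling applied. The tool kallisto 0.5.0 and the build mm10 come from the submitters' processing notes, while each file ends in entries of the kind htseq-count writes. Which aligner, strand setting and gene models were used is not given in the sources used, so overlapping genes and close paralogs are uncertain. Entries for reads given to no gene were left out of library sizes (53.7% to 62.0% of entries in sham).

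CPM used TMM factors over the sham libraries, or over all 10 libraries where irradiated values are given. Gene lengths are exon unions from GENCODE M21 on GRCm38, with 98.4% of symbols matched, 651 of them through RefSeq synonyms. Ranges are log2 CPM with a prior count of 2. List means average log2 CPM over list members. FLASH and CONV were tested against sham by edgeR 4.0.16 (R 4.3.3; quasi-likelihood, robust, filterByExpr, 1 mean per group, all 10 libraries, two-sided, Benjamini-Hochberg over 15266 genes). DESeq2 1.42.0 and limma 3.58.1 were alternatives, and figures and tables used Python 3.11.15 with pandas 2.3.3. The steps were tested on simulated data. Gene counts of 28.9 to 34.9 M per sham library set the counting error.

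The members and the 42 gene lists were chosen with earlier results of these data known; 2 lists (ribosomal proteins, oxidative phosphorylation) were added after the data were seen. Genes were named by rule: the 25 leading genes on each scale, up to 5 members of each list with the highest level and those at 0, the 30 genes with the widest and 10 with the smallest range, the list members with the widest and narrowest range, and genes past the threshold. Other list members given as examples were chosen after their values were seen. Alternatives were other scaling factors, filters, prior counts and tools, a replicate block, and leaving out single libraries. Some genes within the rule are not reported here. List shares without Scd1, and counts of highest members without a filter on level, were added after seeing the data.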

Additional observations from a re-analysis of the deposited data

Results flagged for a closer look

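No sham value could be examined for single outlying libraries, since groups of 3 were not tested. In FLASH, whose 4 libraries are set beside sham, 13 of 44 list means had 1 library far from the others by Dixon's criterion, where chance alone flags about 1 in 20. Most flags fell on the same library and some lists share genes, so the flags are not independent and cannot show an excess over that rate. Values are log2 units relative to the sham mean. FLASH replicate 3 stood apart upwards for B and plasma cells (8.90), T and NK cells (5.36), lymph node vessels (4.95), dendritic cells (3.53) and neutrophils (1.62). It stood apart downwards for white adipocyte genes (-2.26), secreted factors (-2.05), other matrix genes (-1.82), adipocyte nuclear regulators (-1.25), lipolysis genes (-1.25), glucocorticoid response (-0.81) and insulin signalling (-0.55). The remaining one was FLASH replicate 4, where keratinocyte and hair genes stood at 4.26. In sham the same keratinocyte list stood between -0.19 and 0.16, and the B and plasma cell list between -0.77 and 0.45.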

How the results depend on the processing

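The share of counts in the 10 leading genes kept within its SD under every alternative run, and no result reversed. Depth limits genes near the floor, and 3 sham libraries limit every statement on spread. The common biological coefficient of variation in sham was 0.192, 0.231 with no filter and 0.170 to 0.223 with 1 sham library left out. Genes over 4-fold numbered 65, and 12, 43 and 63 without replicates 3, 1 and 2. Scaling by total counts moved the median gene by at most 0.06 log2 units. Under other scalings and prior counts, 1 of 136 gene ranges and 5 of 176 list ranges moved by more than the spread between libraries. With 1 library left out 34 of 102 and 43 of 132 did. Over 3 libraries, leaving out the library farthest from the others moves a range by more than that spread for nearly any values. These last 2 counts therefore say nothing about how far the ranges depend on single libraries. CONV against sham gave 0 genes with edgeR, 66 with DESeq2, 1 without FLASH replicate 3 (0 to 1 over all single libraries left out), and 6 without the lymphocyte-rich pair, which became 661 with DESeq2 and 4 with limma voom. FLASH against sham gave 0 genes, and 4 without the pair with DESeq2. The fits without the pair by DESeq2 and limma voom were added after seeing the data, and the causes were not tested. With the replicate number as a block, FLASH gave 0 and CONV 0 genes, which changed no call. Same-numbered libraries of sham and FLASH correlated between -0.05 and 0.26 in their deviations and those of sham and CONV between -0.47 and 0.07. These values show no clear pairing by replicate number. They cannot exclude one, since each group has 3 or 4 libraries that differ in muscle and lymphocyte RNA.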

Other observations

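Ribosomal protein genes were split between libraries in another way than the rest. Of 83 with a count in sham, 50 were highest in replicate 1, 32 in replicate 3 and 1 in replicate 2, and 43, 39 and 1 with total counts as scaling. The mast cell proteases Cpa3 and Tpsb2 were lowest in replicate 1, with Cpa3 at 11.9, 22.4 and 33.5 CPM and Tpsb2 at 18.9, 35.6 and 36.0 CPM. The cell cycle list was lowest in replicate 3 by its mean, with Mki67 at 19.7, 26.7 and 12.5 CPM. The amylase gene Amy1 was 322, 288 and 290 CPM, steady between libraries, while the major urinary protein gene Mup3 was 1.79, 2.21 and 0.430 CPM. Cish, a feedback inhibitor of cytokine signalling, was 3.20, 1.51 and 34.5 CPM. In the irradiated libraries it was 31.5, 1.02, 19.4 and 4.45 CPM in FLASH replicates 1 to 4 and 25.99, 4.71 and 8.90 CPM in CONV replicates 1 to 3, so high and low values occurred in every group.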
